A study of Mus musculus with 6 samples.

Results

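The BCL2 family sets whether a cell survives or dies by the mitochondrial route of apoptosis, and 10 of its genes were followed here in liver endothelial cells (ECs) of young and aged mice. They were chosen by name and role, not by a threshold on their values, from the 24421 gene symbols of the count table. The list holds 4 survival genes (Bcl2, Bcl2l1, Mcl1 and Bcl2a1a), 2 pore-forming genes (Bax and Bak1) and 4 BH3-only genes (Bid, Bcl2l11, Bbc3 and Pmaip1). A gene was tested if it reached a level of 0.5 CPM, read counts scaled to a common library size, in at least 1 library, which left 9 of the 10 members and 14612 genes in all, and Bcl2a1a was the member that did not pass.

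Survival proteins of this family hold the pore-forming proteins BAX and BAK in check at the outer mitochondrial membrane. BH3-only proteins, which carry a single short homology domain, bind the survival proteins or activate BAX and BAK directly, and the opened pores release cytochrome c, which starts caspase activation. MCL1 and BCL-XL, the product of Bcl2l1, are known as survival factors of liver cells and of endothelium, and BIM, the product of Bcl2l11, as a death factor held down by growth factor signalling.

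The ECs were sorted from liver as CD31+CD45- cells, a gate on an endothelial surface protein and on the absence of the leukocyte protein CD45. All 6 samples came from wild-type (WT) C57BL/6J mice without treatment in the labels, and the methods say that only females were used. The young group held 3 samples at 10 weeks of age, numbered 1 to 3, and the aged group 3 samples at 127, 131 and 136 weeks, named here by those ages. The samples are described as independent, and whether each came from a single mouse is not given in the sources used here. RNA from sorted cells of each sample was read as single-end 75-base reads, to find how gene expression in liver ECs differs with age, and the p-values below measure the spread between these 3 samples per age.

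Total counts ran from 23001556 to 31651817 per library, so that 3 counts stood for 0.0947 to 0.135 CPM. Young sample 3 and the 127-week sample stood apart from the other 4 libraries by their few counts for Lars2 and Rn45s (1.29% and 0.960% of counts against 4.68% to 5.53%). Rn45s is a ribosomal RNA gene and Lars2 a protein-coding one, and their counts together are called ribosomal counts below for short. Differences within each kind of library, as means of log2(CPM + 1) with a pseudocount of 1, are given beside the pooled ones. That pseudocount shrinks the differences of low genes such as Pmaip1 and Bak1. The endothelial marker Pecam1 lay between 1366 and 1635 CPM in all 6 libraries. The summed CPM of 12 endothelial markers was 26220 to 28470 in young and 14515 to 20889 in aged libraries. Of the 12, 8 lay lower in all aged than in all young samples, where 8.33% of all tested genes did. The rest overlapped between the ages. The list includes markers of sinusoidal ECs, so its sum does not measure endothelial content alone. The pan-leukocyte marker sum over 7 genes was 18.6 to 28.7 CPM in young samples and 64.3, 20.2 and 218 CPM at 127, 131 and 136 weeks, with none of the 7 at 0 throughout. The sum over 6 hepatocyte markers was 86.2 to 142 CPM in young and 61.0 to 77.2 CPM in aged samples, ranges that did not overlap, with none at 0 throughout. The part of these other cell types in the differences below was not tested. In these bulk samples, fewer cells of a type and less RNA per cell cannot be told apart.

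The 10 members spanned a wide range of transcript levels, with Mcl1 at the top of them in both ages. In young ECs the mean FPKM (fragments scaled to transcript length and library size, so that genes can be set side by side) was 99.6 ± 1.32 (SD, n = 3) for Mcl1, 83.3 ± 6.80 for Bax and 56.5 ± 1.39 for Bcl2l1. The ranges of these 3 genes did not overlap in young or in aged ECs, and every other member lay below them. Bcl2l11 followed with a mean of 9.19 ± 3.31 FPKM (SD, n = 3) and Bid with 7.16 ± 0.997, and the ranges of this pair overlapped. Bcl2, which names the family, reached only 4.11 ± 0.545 FPKM (SD, n = 3) and overlapped Bbc3 at 3.55 ± 0.483. Bak1, at 1.56 ± 0.562 FPKM, stood far below Bax, the other pore-forming member. Pmaip1 was next at 0.932 ± 0.517 FPKM, with a range that overlapped that of Bak1, and Bcl2a1a was lowest at 0.179 ± 0.0772 (SD, n = 3). In aged ECs the order differed in the lower part only, where Pmaip1, at 3.59 ± 2.76 FPKM (SD, n = 3), moved from ninth to seventh place, between Bcl2 at 4.01 ± 1.17 and Bbc3 at 2.78 ± 0.891. The aged ranges of Bcl2 and Pmaip1 and of Pmaip1 and Bbc3 overlapped, so these places are not separated. The plot of levels by gene shows the same 3 members at 36.7 FPKM or more in every library and the other 7 at 13.0 or less.

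**Figure D1:**
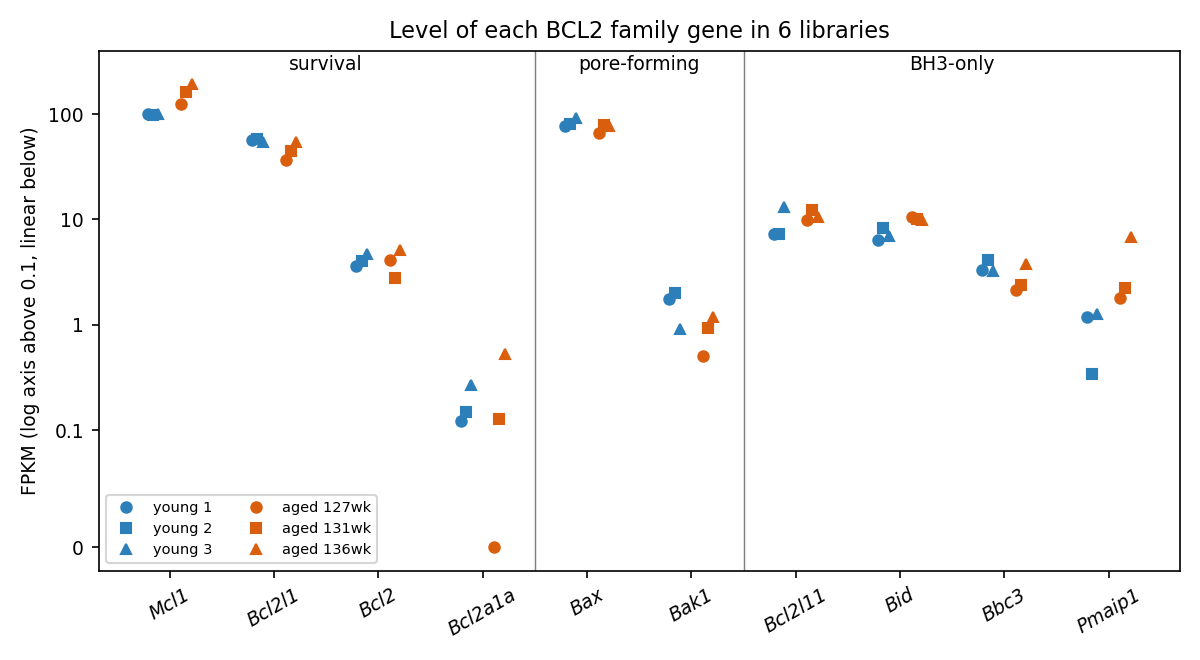
FPKM of the 10 BCL2 family genes in each of the 6 libraries, on an axis that is logarithmic above 0.1 and linear below, with blue symbols for young and orange symbols for aged samples. Mcl1, Bax and Bcl2l1 lie far above the rest in every library, and Bcl2a1a is listed at 0 in the 127-week sample.

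Across all members, 0 of 9 passed an adjusted p of 0.05 between aged and young ECs (edgeR's quasi-likelihood test with Benjamini-Hochberg adjustment), as did 0 of the 14612 genes tested (0%), for which the smallest adjusted p was 0.0735. At an unadjusted p below 0.05, 3 of 9 members (Mcl1, Bid and Pmaip1) were higher in aged ECs, where 8.32% of all tested genes were, and 0 members were lower, where 4.32% of all genes were. The same 3 members had all 3 aged CPM values above all 3 young values, where 9.62% of all genes did, and no member had all aged CPM values below, where 8.33% did (17.9% in either direction). By DESeq2's Wald test 1 of 9 members, Mcl1, passed an adjusted p of 0.05, where 3.46% of genes with an adjusted p were higher in aged ECs and 1.11% lower (4.57% in all). The median log2 fold change over the 9 members was 0.08, beside 0.01 over all tested genes. For 1 gene alone, 3 samples per age allow an exact permutation p of 0.1 at the least.

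Mcl1 encodes a short-lived survival protein that restrains BAK and binds several BH3-only proteins, and it was higher in every aged sample. Its level was 347, 336 and 339 CPM in young samples 1, 2 and 3, and 428, 563 and 665 CPM at 127, 131 and 136 weeks. The young values lay close together (SD 5.26 CPM) while the aged values were widely spread (SD 119 CPM), and the ages did not overlap. The aged level was 1.62 times the young level (95% interval 1.19 to 2.21), a log2 fold change of 0.70 with an SE of 0.19 and an unadjusted p of 0.00747, but the edgeR adjusted p was 0.256. DESeq2 gave it an adjusted p of 0.0313. Among the 4 libraries with many ribosomal counts the aged samples were higher by 0.84 on the log2 scale, and in the pair with few by 0.33. The difference of Mcl1 stood at an unadjusted p below 0.05 when any single sample was left out, with log2 fold changes of 0.54 to 0.85.

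Mcl1 was measured without overlap from a neighbour: no other gene shared its exon bases in the annotation. The gene lies at chr3:95462643-95467099 of mm9, plus strand. The 250 bases before its RefSeq start, at chr3:95462393-95462642 on the plus strand, are printed because Mcl1 had the highest FPKM of the 10 members in every library. Capitals mark the GC box letters GGGCGG, here read on the opposite strand.
Mcl1 promoter: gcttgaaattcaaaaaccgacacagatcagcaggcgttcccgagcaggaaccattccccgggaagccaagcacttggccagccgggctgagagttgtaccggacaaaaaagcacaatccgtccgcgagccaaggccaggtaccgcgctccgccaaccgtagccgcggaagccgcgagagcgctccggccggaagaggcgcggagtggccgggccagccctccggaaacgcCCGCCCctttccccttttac

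Bcl2l1 (chr2:152593052-152657464 of mm9, minus strand), whose main product BCL-XL is a long-lived survival protein, went the other way in value without passing the test. Its level was 138, 139 and 129.8 CPM in young samples and 87.8, 108 and 130.5 CPM at 127, 131 and 136 weeks. The oldest sample overlapped the young samples, and the other aged samples lay below them. The log2 fold change was -0.32 with an SE of 0.17 (edgeR adjusted p = 0.502), and the 95% interval of the fold ran from 0.608 to 1.06. The difference was -0.22 on the log2 scale where ribosomal counts were many and -0.56 in the pair with few. In the deposited FPKM values the aged range of 36.7 to 54.5 lay just below the young range of 55.0 to 57.6, where 8.78% of all tested genes had all aged FPKM values lower. The 3 members whose ages lay apart by CPM did so by FPKM as well, where 9.44% of genes were higher. The counts do not separate the long BCL-XL transcript from the short death-promoting one.

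Bcl2 (chr1:108434755-108610851 of mm9, minus strand), the founding survival gene of the family, was at 16.9, 15.8 and 19.97 CPM in young samples and at 20.6, 11.6 and 23.4 CPM at 127, 131 and 136 weeks. The 131-week sample was the lowest of all 6 and the 136-week sample the highest, and the ages overlapped. The log2 fold change of 0.08 (SE 0.28) took a negative sign in 4 of 15 alternative settings. Its 95% interval reached from a fold of 0.671 to one of 1.66, which leaves room for a sizeable difference in either direction. Within the kinds of library the aged level was higher by 0.01 and 0.04 on the log2 scale.

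Bcl2a1a (chr9:88851738-88857254 of mm9, plus strand), which encodes the survival protein A1 known from myeloid and lymphoid cells, was barely counted. The libraries held 2, 2 and 5 counts in young samples and 0, 2 and 8 counts at 127, 131 and 136 weeks. The exact 95% Poisson interval was 3.45 to 15.8 counts at 136 weeks and 0 to 3.69 counts at 127 weeks, for counting error only. At 127 weeks, 3 counts, the floor used here, stood for 0.103 CPM. A difference between the ages was not detectable at this depth. The gene is also one of several near-identical copies on chromosome 9, so its counts are uncertain: 55.0% of the 75-base stretches of its transcript occur unchanged in Bcl2a1b, Bcl2a1c, Bcl2a1d or Mthfs, a gene that shares 49.1% of the exon bases of Bcl2a1b. Over 519 coding bases, Bcl2a1a was 97.9% identical to Bcl2a1b and 98.7% identical to Bcl2a1d. The first 75 coding bases, as long as 1 read, are printed from the mm9 transcripts in the sense of the gene, since they hold 6 of the 12 positions at which the 3 copies differ, and capitals mark those positions.
Bcl2a1a: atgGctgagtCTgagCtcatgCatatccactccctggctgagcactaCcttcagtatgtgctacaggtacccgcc
Bcl2a1b: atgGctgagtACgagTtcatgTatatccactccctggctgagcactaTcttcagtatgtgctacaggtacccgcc
Bcl2a1d: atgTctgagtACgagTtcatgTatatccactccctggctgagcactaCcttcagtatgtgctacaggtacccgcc
Summed over the 4 copies, whose counts cannot be assigned firmly to one of them, the libraries held 13, 12 and 28 counts in young samples and 44, 19 and 114 at 127, 131 and 136 weeks. This sum was 0.636 ± 0.216 CPM (SD, n = 3) in young and 2.29 ± 2.06 CPM in aged ECs, and the 131-week sample fell inside the young range. The order of the aged samples was that of Ptprc, the gene of CD45, which stood at 1.17 to 1.70 CPM in young samples and at 7.57, 1.28 and 25.6 CPM at 127, 131 and 136 weeks. Among the 7 pan-leukocyte markers, 6 had an unadjusted p below 0.05 and a higher mean level in aged samples, where 8.32% of all genes did. Only 1 of the 7 had all aged values above all young values, where 9.62% of all genes did. The part of leukocytes in the Bcl2a1 counts was not tested.

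Bax (chr7:52717065-52722268 of mm9, minus strand) was the abundant pore-forming member of the list, and its ages overlapped. Its level was 55.9, 57.5 and 65.4 CPM in young samples and 47.8, 56.3 and 55.6 CPM at 127, 131 and 136 weeks. The 127-week sample was lowest and the rest overlapped. The log2 fold change was -0.16 with an SE of 0.14 (edgeR adjusted p = 0.695), and the 95% interval of the fold was 0.714 to 1.12. Within the kinds of library the log2 difference was -0.02 with many ribosomal counts and -0.44 in the pair with few. Bak1 (chr17:27156755-27165954 of mm9, minus strand), the other pore-forming member, had 3.39, 3.75 and 1.67 CPM in young samples and 0.963, 1.79 and 2.44 CPM at 127, 131 and 136 weeks. Young samples 1 and 2 were the highest, and young sample 3 fell among the aged samples. Its log2 fold change of -0.76 had an SE of 0.50 (edgeR adjusted p = 0.592), and the interval of the fold, 0.261 to 1.33, was the widest after that of Pmaip1. The log2 difference was -0.56 where ribosomal counts were many and -0.44 where they were few. Bak1 shares 14.8% of its exon bases with Ggnbp1 on the opposite strand, and whether the counting used strand is not given in the sources used here.

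Of the BH3-only members, Bid and Pmaip1 were the 2 with every aged value above every young value. Bid (chr6:120841948-120866871 of mm9, minus strand) encodes a protein that caspase-8 cuts to link death receptors to mitochondria. Its level was 11.2, 14.5 and 11.8 CPM in young samples and 18.4, 18.0 and 17.3 CPM at 127, 131 and 136 weeks. The aged samples (SD 0.548 CPM) formed a tighter group than the young samples (SD 1.79 CPM), and the ages did not overlap. The fold was 1.43 (95% interval 1.07 to 1.92), with a log2 fold change of 0.52, an SE of 0.18, an unadjusted p of 0.0223 and an edgeR adjusted p of 0.332. The log2 difference was 0.44 where these ribosomal counts were many and 0.60 where they were few. Without young sample 1, young sample 3 or the 127-week sample, the unadjusted p of Bid was no longer below 0.05, with log2 fold changes of 0.45, 0.48 and 0.50. Bid shares 17.7% of its exon bases with Bcl2l13 on the opposite strand, and Bcl2l13 had a log2 fold change of -0.15 (edgeR adjusted p = 0.667). The 250 bases before its RefSeq start, at chr6:120866843-120867092 of mm9 on the minus strand, are printed for comparison with Mcl1, and the capitals mark GGGCGG.
Bid promoter: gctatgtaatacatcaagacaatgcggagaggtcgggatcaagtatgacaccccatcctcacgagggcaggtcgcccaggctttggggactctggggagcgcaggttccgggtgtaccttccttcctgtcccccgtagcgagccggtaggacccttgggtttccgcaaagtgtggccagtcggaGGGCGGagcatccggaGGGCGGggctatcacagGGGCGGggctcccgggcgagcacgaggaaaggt

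Pmaip1 encodes NOXA, a BH3-only protein that binds MCL1 and targets it for degradation, and it had the largest fold of the 9 tested members. Its level was 3.01, 0.858 and 3.15 CPM in young samples and 4.47, 5.64 and 17.2 CPM at 127, 131 and 136 weeks. The 136-week sample stood far above the other aged samples, and young sample 2 far below the other young samples. The fold was 3.86 (95% interval 1.30 to 11.5), with a log2 fold change of 1.95, an SE of 0.67 and an unadjusted p of 0.0216. Its edgeR adjusted p was 0.332, and 0.0591 by DESeq2. Without the 136-week sample the log2 fold change was 1.10 and without young sample 2 it was 1.56, and in both cases the unadjusted p was no longer below 0.05. Its log2 difference was 2.01 where ribosomal counts were many and 0.40 in the pair with few.

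Bcl2l11 (chr2:127951774-127988283 of mm9, plus strand), the gene of BIM, was at 32.8, 32.4 and 58.9 CPM in young samples and at 46.7, 55.6 and 48.7 CPM at 127, 131 and 136 weeks. Young sample 3 was the highest of all 6 and young samples 1 and 2 the lowest, so the ages overlapped through 1 library. The log2 fold change was 0.28 with an SE of 0.25 (edgeR adjusted p = 0.713), and 0.63 without young sample 3. Where ribosomal counts were many the aged samples were higher by 0.66 on the log2 scale, while in the pair with few the sign was the opposite, at -0.33. Bbc3 (chr7:16894965-16903554 of mm9, plus strand) encodes PUMA, a BH3-only protein induced by p53. Its level was 6.18, 7.58 and 6.06 CPM in young samples and 3.99, 4.51 and 7.03 CPM at 127, 131 and 136 weeks. The 136-week sample lay inside the young range and the other aged samples below it, with a log2 fold change of -0.35 and an SE of 0.30 (edgeR adjusted p = 0.691). Its log2 difference was -0.24 among libraries with many ribosomal counts and -0.50 in the pair with few.

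The plot of CPM by sample sets 3 members whose ages lay apart beside 3 whose ages overlapped. Sorting by sample shows that the same sample was not extreme throughout: the 136-week sample was the highest of all for Mcl1, Pmaip1 and Bcl2 but the lowest aged sample for Bid. The pan-leukocyte sum was 20.2 CPM in the 131-week sample, within the young range, and 218 CPM in the 136-week sample. Both of these samples were above all young samples for Mcl1, Bid and Pmaip1. The part of leukocytes in these levels was not tested.

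**Figure D2:**
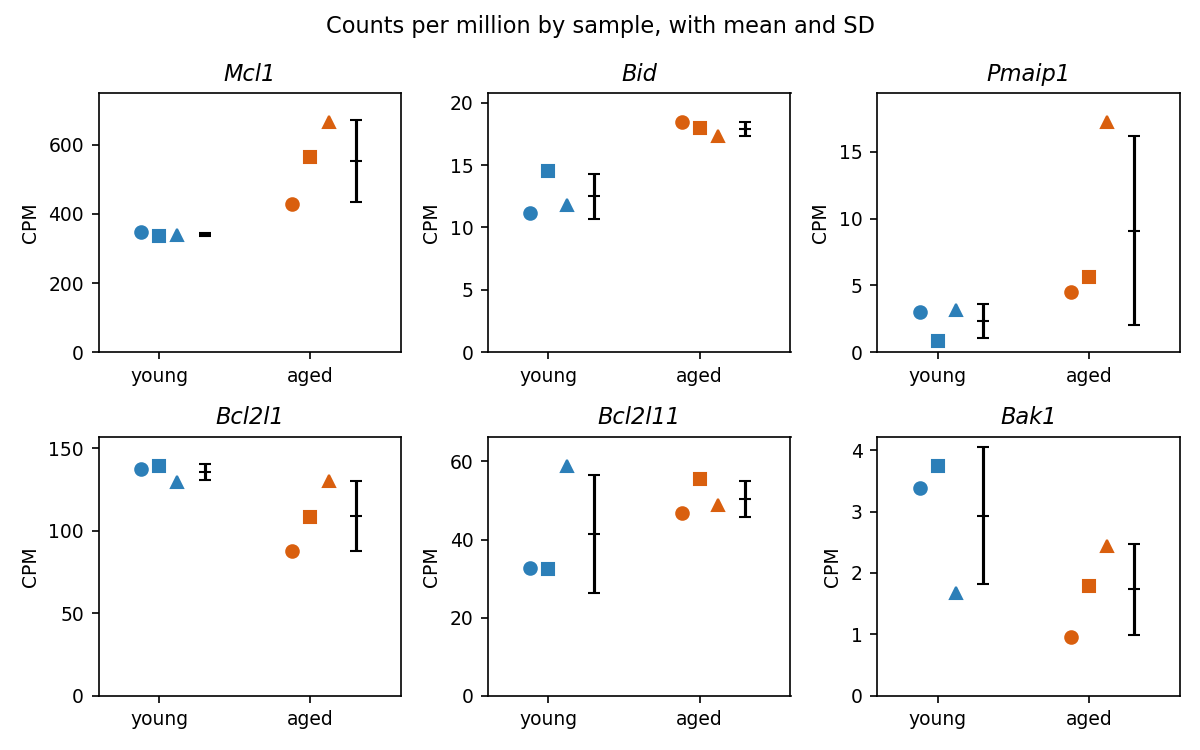
CPM of 6 members in each sample on linear axes from 0, with circles, squares and triangles for young samples 1 to 3 and for the 127-, 131- and 136-week samples, and a black bar for the mean and SD of each age (n = 3). The aged points lie above all young points for Mcl1, Bid and Pmaip1, and the ages overlap for Bcl2l1, Bcl2l11 and Bak1.

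The plot of fold changes shows how wide the intervals were. The 95% intervals of Mcl1, Bid and Pmaip1 lay above 0 and those of the other 6 tested members crossed it. Over 15 alternative settings the log2 fold change ran from 0.54 to 0.85 for Mcl1, from 0.45 to 0.64 for Bid and from 1.10 to 2.28 for Pmaip1. Direction was kept in all 15 settings for every tested member except Bcl2.

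**Figure D3:**
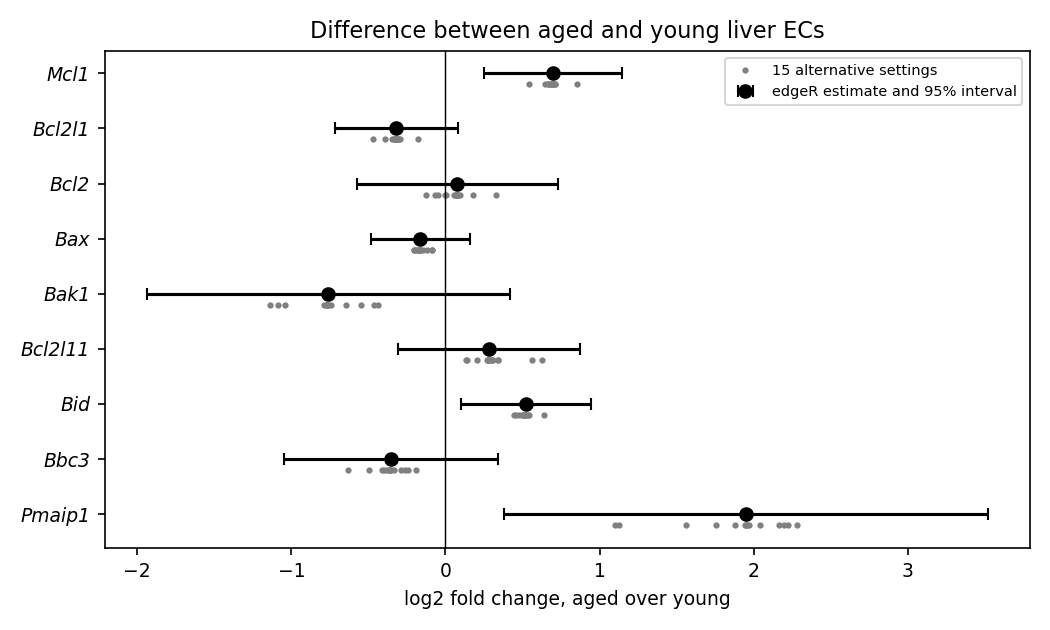
Log2 fold change of aged over young liver ECs for the 9 tested members, as the edgeR estimate with its 95% interval (black) and under 15 alternative settings (grey points). Positive values are higher in aged ECs, and Pmaip1 has both the largest estimate and the widest interval.

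Set against each other within a library, the survival genes divided differently at the 2 ages. The ratio of Mcl1 to Bcl2l1 FPKM was 1.77, 1.71 and 1.81 in young samples and 3.40, 3.64 and 3.55 at 127, 131 and 136 weeks. The ratio did not overlap between the ages and varied little within them, with means of 1.76 ± 0.0515 and 3.53 ± 0.123 (SD, n = 3). Aged ECs thus had 2.00 times the young ratio, although the aged samples differed widely in the level of Mcl1 itself. The ratio of raw counts, which needs no scaling between libraries, was 2.41 to 2.61 in young and 4.88 to 5.21 in aged samples, so that the lowest aged ratio was 1.87 times the highest young one. A gap at least as large between the ages was found for 243 of 13953 other genes set against Mcl1 (1.74%), and the aged and young ranges lay apart for 48.7% of all genes set against Mcl1 and for 25.7% set against Bcl2l1. This pair was picked after its values were seen, so the ratio is a description without a test.

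As a share of the summed FPKM of the 4 survival genes, Mcl1 held 61.4% to 62.4% in young and 75.3% to 77.4% in aged ECs. Bcl2l1 held 34.5% to 36.0% and 21.2% to 22.2%, and Bcl2 between 1.31% and 2.95% in every library. The summed survival FPKM was 160.4 ± 1.22 (SD, n = 3) in young and 210.5 ± 44.1 in aged ECs. Among the BH3-only genes, Pmaip1 held 6.59%, 1.68% and 5.21% of the summed FPKM in young samples and 7.29%, 8.22% and 21.8% at 127, 131 and 136 weeks. Bcl2l11 and Bid together made up most of the BH3-only transcripts in every library. The BH3-only sum was 20.8 ± 3.27 FPKM (SD, n = 3) in young and 27.5 ± 3.31 in aged ECs, while the pore-forming sum was 84.9 ± 6.29 and 75.0 ± 7.03.

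**Figure D4:**
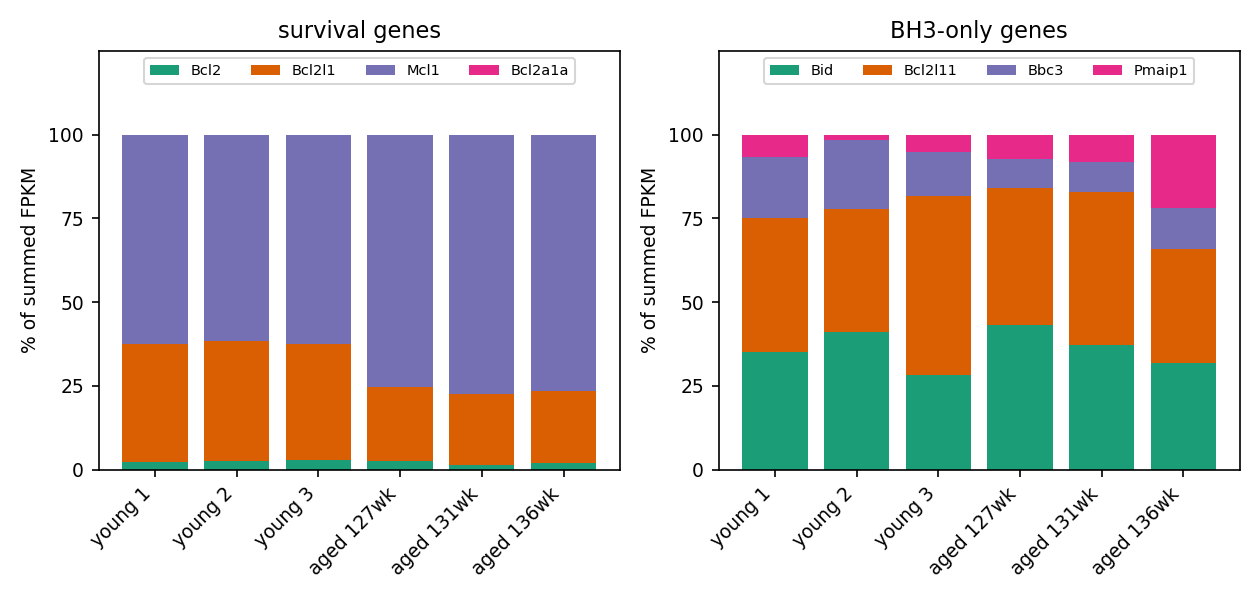
Share of each member in the summed FPKM of the 4 survival genes (left) and the 4 BH3-only genes (right), with 1 bar per library and an axis in percent. Mcl1 takes 61.4% to 62.4% of the survival bars in young and 75.3% to 77.4% in aged samples, and Pmaip1 its largest share, 21.8%, at 136 weeks.

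Among the 36 pairs of tested members, the count ratio of 15 pairs did not overlap between the ages, where 18.5% of all gene pairs did not. Of the 8 pairs with Mcl1, 5 lay apart, where 48.7% of all genes set against Mcl1 did. Those were the ratios to Bcl2l1, Bax, Bak1 and Bbc3, which were higher in aged ECs, and to Pmaip1, which was lower. Pairs share members, so these counts are not independent of each other. Each of the 15 pairs held Mcl1, Bid or Pmaip1, whose ages lay apart by CPM. The count of pairs thus largely restates that result, and all gene pairs are not a fitting comparison for it. The FPKM ratio of Mcl1 to Bid, both higher in aged ECs, was 11.9 to 15.97 in young and 11.8 to 19.6 in aged samples and overlapped. The FPKM ratio of Bax to Bcl2 was 19.4 to 21.6 in young samples and 15.2 to 28.1 in aged samples, whose range enclosed the young one. Bax to Bcl2l1, the ratio of the abundant pore gene to the second survival gene, was 1.37 to 1.66 in young and 1.43 to 1.81 in aged samples.

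The family has further members that were not on the list. Bok, a pore-forming relative of Bax and Bak1, was lower in all aged samples, at 106, 142 and 152 CPM in young samples and 66.3, 75.5 and 87.5 CPM at 127, 131 and 136 weeks. Its log2 fold change was -0.81 with an SE of 0.19 and an unadjusted p of 0.00301 (edgeR adjusted p = 0.235, DESeq2 adjusted p = 0.0107). By FPKM, Bok stood at 83.0 to 121 in young ECs, overlapping the range of Bax, and at 52.1 to 67.8 in aged ECs. The BH3-only genes Bad, Bik and Bmf had log2 fold changes of -0.35, -0.22 and 0.03 and unadjusted p-values of 0.0845 or more, and Hrk did not reach the count minimum. Of the other survival paralogues, Bcl2l2, the gene of BCL-W, had a log2 fold change of 0.30 (edgeR adjusted p = 0.720). Bcl2a1b and Bcl2a1d, copies of the low-count A1 gene above, had 2.01 and 1.93 with edgeR adjusted p-values of 0.371 and 0.440, while Bcl2l10 and Bcl2a1c were too low to test. The median of these paralogues, 1.93, fell to 0.31 when a gene had to reach 1 CPM in 3 libraries.

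Around the family, 11 lists of 80 genes covered its relatives, the caspases and their inhibitors, the factors known to control it, and 12 genes that respond to tissue dissociation, and 74 of the 80 were tested. None passed an edgeR adjusted p of 0.05. At an unadjusted p below 0.05, 10 of 74 were higher in aged ECs and 5 lower, where 8.32% and 4.32% of all genes were. The dissociation response held 6 of the 10, and without it 4 of 62 were higher and 5 lower. DESeq2's adjusted p was below 0.05 for 4 higher and 2 lower genes, where 3.46% and 1.11% of all genes with an adjusted p were. These were Tnfaip3, Ier3, Fosb and Atf3, and Bok and Dusp1, of which Atf3 was named after its values were seen. Ier3, Fosb, Atf3 and Dusp1 belong to the dissociation response, and without it 1 higher and 1 lower gene passed.

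Downstream of the mitochondrial pore, the 14 genes of the apoptosome and the caspases had a median log2 fold change of -0.09, with 1 gene at an unadjusted p below 0.05. That gene was Casp2, an initiator caspase, at 62.8 to 67.4 CPM in young and 44.3 to 54.7 CPM in aged ECs (log2 fold change -0.44, edgeR adjusted p = 0.304). Casp8, the enzyme that cuts BID, had a log2 fold change of -0.21 (edgeR adjusted p = 0.554), and Cycs, the gene of cytochrome c, 0.13 (edgeR adjusted p = 0.829). None of 5 caspase inhibitors reached an unadjusted p of 0.05 and their median was -0.06. Birc3, an inhibitor of apoptosis induced by NF-kB, was the only 1 of the 5 with a higher value, with a log2 fold change of 0.47 (edgeR adjusted p = 0.556). None of the 4 outer membrane partners (median 0.01) or of the 4 BCL2-like and BNIP genes tested (median -0.02) reached an unadjusted p of 0.05 either. Vdac2, whose product holds BAK at the outer membrane, had a log2 fold change of 0.02.

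Upstream, 4 genes for the turnover of the MCL1 protein had a median log2 fold change of -0.13 and none had an unadjusted p below 0.05. Huwe1, a ligase that marks MCL1 for degradation, was at 38.1 to 72.8 CPM in young and 38.0 to 79.7 CPM in aged ECs. Of 6 transcription factors tested, 1 was higher at an unadjusted p below 0.05. This was Atf4, the stress-response factor known to drive Pmaip1, at 102 to 149 CPM in young and 174 to 238 CPM in aged ECs (log2 fold change 0.68, edgeR adjusted p = 0.282). Trp53, the gene of p53, had 0.32 (edgeR adjusted p = 0.547). Among 12 further p53 targets, 3 were lower and 0 higher at an unadjusted p below 0.05, where 4.32% and 8.32% of all genes were. Their median was -0.23. Trp53inp1, at -0.56, and Ei24, at -0.37, were the lower genes with the smallest p (edgeR adjusted p = 0.332 and 0.368). Cdkn1a, the cell cycle inhibitor p21, had 0.56 (edgeR adjusted p = 0.422) and was higher in all aged than in all young samples. By CPM, 3 of the 12 targets were lower in all aged samples.

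NF-kB, whose survival targets are known to include Bcl2l1 and the A1 genes, had 2 of 6 subunit and feedback genes higher at an unadjusted p below 0.05. Tnfaip3, a feedback inhibitor, was at 59.9, 83.0 and 99.95 CPM in young samples and 263, 237 and 722 CPM at 127, 131 and 136 weeks (log2 fold change 2.33, SE 0.46, edgeR adjusted p = 0.193, DESeq2 adjusted p = 3.2e-05). Nfkbia, another feedback inhibitor, had a log2 fold change of 0.82 (edgeR adjusted p = 0.314). Both were highest in the 136-week sample, as Mcl1, Pmaip1 and the leukocyte gene Ptprc were. Tnfaip3 was lower at 131 than at 127 weeks, whereas Nfkbia, Mcl1 and Pmaip1 were higher. A link between these genes was not tested.

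The dissociation response is a group of genes that tissue digestion and sorting can switch on quickly, and 0 of its 12 genes passed an edgeR adjusted p of 0.05. Their summed level over 12 genes was 21929 to 25520 CPM in young and 25344 to 33088 CPM in aged libraries, ranges that overlapped slightly, and 6 of 12 were higher in aged ECs at an unadjusted p below 0.05. Ier3, a rapid stress gene, had a log2 fold change of 1.02 (edgeR adjusted p = 0.235) and Fosb one of 0.86 (edgeR adjusted p = 0.263). Dusp1, on the same list, had -0.41 (edgeR adjusted p = 0.410). None of the 12 was at 0 in all libraries, and the part of this response in the difference of Mcl1, itself a gene of rapid turnover, was not tested.

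**Figure D5:**
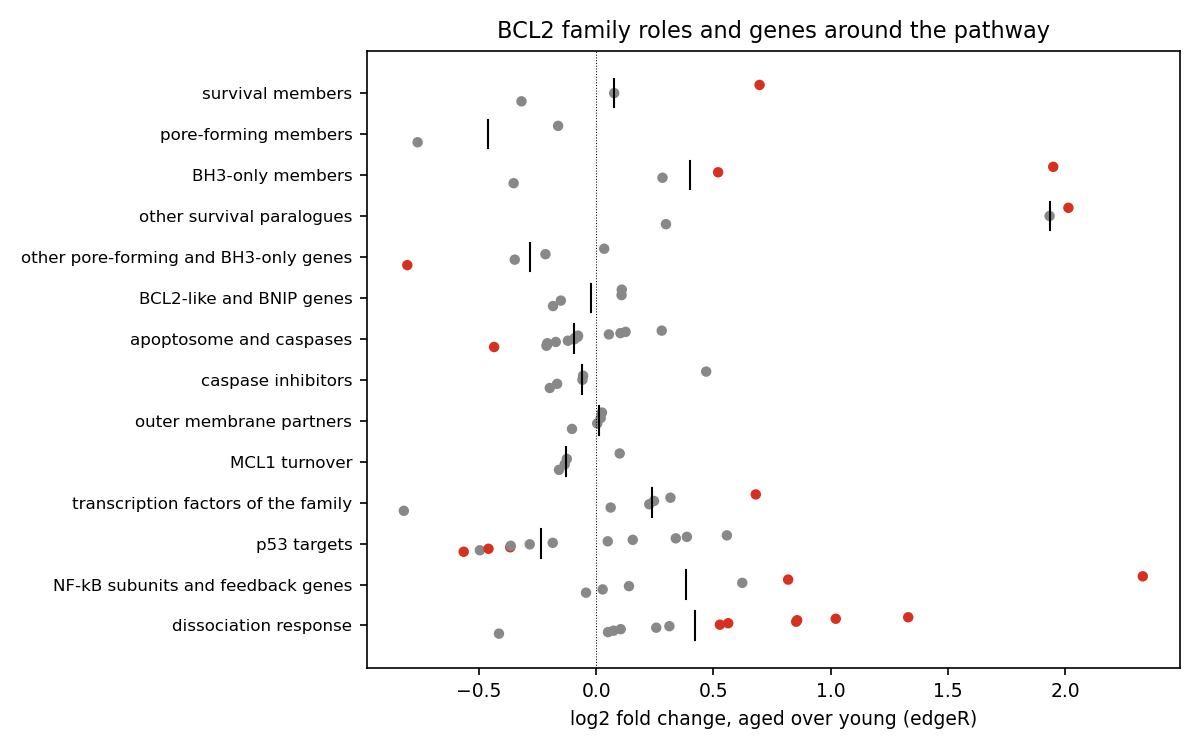
Log2 fold change of aged over young liver ECs for each tested gene of the 3 member roles and of 11 lists around the pathway, with red points for an unadjusted p below 0.05 and black bars for list medians. List medians run from -0.46, for the 2 pore-forming members, to 1.93, for 3 survival paralogues other than members. The dissociation response holds 6 red points.

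The promoter windows of the family shared GC boxes and few of the stress motifs searched. RefSeq windows of 250 bases before to 50 after the start were at hand for 9 of 10 members (14 windows, all but Pmaip1), out of 32851 windows (GRCm38.p6). Only the 250 bases before the start were searched, on both strands, in the members and in all windows. The letters GGGCGG, bound by SP family factors, were found in 10 of 14 windows, where 32.7% of all windows held them, with 3 matches in the Bid window and 1 in the Mcl1 window printed above. None of the other motifs searched overlapped these, since neither window held one. The NF-kB consensus was found in 2 windows, 1 of Bbc3 and 1 of Bcl2l1 (7.25% of all windows), and a p53 half-site in 1 of Bax (7.13%). TGANTCA was found in 1 window, that of Bcl2a1a (6.75%), and CACGTG in 2 (6.02%). The CRE letters TGACGTCA (1.55% of all windows) and the STAT spacing TTCNNNGAA (7.02%) were in none, and CCAAT was in 3 (33.9%). These matches describe letters in a window and say nothing of binding.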

How the data were processed

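Bases were called with CASAVA 1.8.2 and reads mapped to mm9 with TopHat2 2.1.0, per the labels. The authors deposited whole-number counts for 24421 gene symbols and FPKM values scaled between libraries with Cuffnorm 2.2.1 for 24346. The counting program, its annotation and its use of strand are not given in the sources used here. Counts of genes with at least 0.5 CPM in 1 library were normalized by TMM and compared with the quasi-likelihood test of edgeR 4.0.16 (R 4.3.3) over all 14612 genes, with Benjamini-Hochberg adjustment at 0.05. The standard error was the absolute log2 fold change over the square root of F. DESeq2 1.42.0 and limma 3.58.1 served as alternatives, with other filters and scalings, a term for the 2 libraries with few Lars2 and Rn45s counts, log2 FPKM with pseudocounts of 0.1 and 1, and each library left out in turn. Named genes were the members, the family's other survival, pore-forming and BH3-only genes, and at most 2 genes per direction of each other list by p, with the first gene of a marker list. Members and lists were chosen with earlier results of these data known. On simulated counts over 14244 genes for this comparison, 12 of 100 genes changed 2-fold and 79 of 100 changed 4-fold were called. Gene positions are those of GENCODE on mm9, the build of the counts. Promoters came from RefSeq (GRCm38.p6), and the printed windows were found unchanged in mm9. Counts and floors carry counting error only, since reads have no molecular identifiers. Replicates of 1 age differed beyond counting noise (smallest chi-square per degree of freedom 21.3).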

Additional observations from a re-analysis of the deposited data

How the results depend on the processing

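The difference of each of the 9 tested members was computed under 15 alternatives, and Bcl2a1a, below the count minimum, was not. Members past an adjusted p of 0.05 numbered 0, and 1 (Mcl1) by DESeq2, and 0 in the 6 fits that left out 1 sample. Members past an unadjusted p of 0.05 numbered 3, and 6 with limma-voom and quality weights, which added Bcl2l11 as higher and Bak1 and Bcl2l1 as lower. A term for the library kind gave 4, adding Bcl2l1 as lower, and leaving out 1 sample gave 2 to 3. Over all tested genes the share past that threshold moved as well. It was 12.6% in the main fit, 15.4% with limma-voom, 16.7% with the library term and 7.64% to 16.7% with 1 sample left out. Members with the ages apart numbered 3, where 17.9% of all genes lay apart, and 3 to 6 with 1 sample left out, 6 being without young sample 3. With fewer samples, ranges lie apart more readily for any gene. The share over all genes is not given for those settings, so the rise is not read as one of the members. Other genes of the pathway past an unadjusted p of 0.05 numbered 15, and 8 to 17 with 1 sample left out (8 without the 136-week sample, 9 without young sample 1 or 2), and 9 without the dissociation response, a choice made after seeing the data. Past an adjusted p they numbered 0, and 6 by DESeq2. Bcl2 changed sign, to -0.0676 and -0.0499 on log2 FPKM with pseudocounts of 0.1 and 1 and, with 1 sample left out, ran from -0.126 without the 136-week sample to 0.325 without the 131-week sample, and the cause was not tested. Ranks of Bcl2, Bbc3 and Pmaip1 by level changed when counts per kilobase of annotated exon replaced FPKM. No paired analysis was made, because young and aged samples came from different mice and nothing in the labels pairs them. With 3 samples per age, the simulated counts show that 2-fold differences are mostly missed at the adjusted threshold, so an adjusted p above 0.05 does not show that a member was equal in both ages. RNA levels do not give the amounts of these proteins, several of which are set by turnover.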
